A study of Mus musculus with 6 samples.

Results

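The genes described here encode 9 mitochondrial enzymes of pyruvate oxidation and the tricarboxylic acid (TCA) cycle: Pdha1, Cs, Idh2, Idh3a, Idh3b, Ogdh, Suclg1, Fh1 and Mdh2. They were taken by symbol, as a named set chosen with earlier results of these data known. Each matched 1 row of the count table, 9 of 53733 named rows. All 9 passed the filter on low counts that left 13652 rows for testing. RNA came from a mouse acute myeloid leukaemia line, MLL-AF9/iFLT3-ITD, made from foetal liver cells. The cells carried 2 retroviral constructs: MLL-AF9 with a luciferase, expressed constitutively from an MSCV vector, and FLT3-ITD with a DsRED reporter, expressed from the TRE-tight promoter while doxycycline is given. The line was grown in NSG mice, a strain without its own T, B and NK cells that keeps other marrow cells, on doxycycline for 96 h. Then 3 mice stayed on doxycycline (ON) and 3 received regular chow and water for 48 h (OFF). Both groups carried MLL-AF9, and the sources used here do not give the age and sex of the mice. Viable leukaemic cells were sorted from the bone marrow, 1 library per mouse, so all libraries come from 1 line.

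Pyruvate made by glycolysis enters the mitochondrion and is turned into acetyl-CoA by the pyruvate dehydrogenase complex (PDH). The TCA cycle joins acetyl-CoA to oxaloacetate, releases its carbon as carbon dioxide and passes the electrons to the respiratory chain. Intermediates of the cycle also leave it, as citrate for lipid synthesis and as oxaloacetate for aspartate, and glutamine refills it. In myeloid leukaemia the pathway is best known for mutations of IDH1 and IDH2 that make 2-hydroxyglutarate.

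Total counts were between 8347588 and 9329917 per library, so 1 count was worth between 0.11 and 0.124 CPM, the unit used throughout: counts relative to the library total after TMM scaling. The leukaemic identity was checked on 8 markers, of which Ptprc, Spi1, Mpo, Elane, Hoxa9 and Meis1 were between 96.9 and 840 CPM on average in ON, Cebpa was at 4.57 CPM and Kit was near 0 (0.27 CPM). These 8 summed to between 1755 and 2020 CPM in ON and between 3106 and 3392 CPM in OFF. The row of mouse Flt3 read 5.48, 5.81 and 5.71 CPM in ON and 5.44, 5.90 and 9.13 CPM in OFF, with overlap. A 3' tag method need not count a viral transgene in that row, so it does not check the labels. Of the markers of other marrow cells, 7 stromal and endothelial ones summed to between 6.82 and 10.3 CPM in ON and between 7.91 and 11.4 CPM in OFF, and 7 macrophage ones to between 42.3 and 47.6 CPM in ON and between 34.2 and 39.9 CPM in OFF. The 6 lymphoid markers, mostly Ighm, summed to between 2.23 and 5.48 CPM in ON and between 8.66 and 12.7 CPM in OFF. The 8 erythroid markers summed to between 150 and 212 CPM in ON and between 577 and 933 CPM in OFF, almost all of it globin RNA, with Klf1 and Epor at most at 0.48 CPM in the group means. The 5 megakaryocyte markers summed to between 32.3 and 37.0 CPM in ON and between 54.9 and 63.8 CPM in OFF, mostly Gp1bb. Of the macrophage markers, Adgre1 rose from 4.06 ± 0.91 CPM to 16.2 ± 6.37 CPM and Vcam1 fell from 39.8 ± 2.04 CPM to 19.9 ± 3.54 CPM (SD; n = 3 mice each; edgeR adjusted p = 0.000203 and 7.65e-05), with C1qa, C1qb and C1qc near 0 in both groups. The part of these cells in the results was not tested, and in bulk RNA fewer cells of a type and less RNA per cell cannot be told apart. Within OFF, replicate 3 stood apart from replicates 1 and 2 on the second principal component (29.3 against -23.9 and -14.4, 13.6% of the variance).

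After withdrawal of doxycycline, 2 of the 9 genes were lower, Idh3a and Mdh2, none was higher and 7 did not pass. Across all 13652 tested rows, 17.5% were lower and 17.3% higher (34.8% either way) at the same threshold, an adjusted p of 0.05 in edgeR's quasi-likelihood test, so the share of lower genes among the 9 was close to the background. Every p measures the spread between these 6 mice. The median log2 fold change of the 9 genes, OFF minus ON, was -0.21, against 0.00 over all tested rows. In 4 of the 9 genes every OFF library lay below every ON library, against 24.5% of all tested rows, and in none did every OFF library lie above every ON library (23.8% of rows). The summed level of the 9 genes was 666 ± 11.5 CPM in ON and 522 ± 23.7 CPM in OFF (SD; n = 3 mice each). Without Idh3a and Mdh2 the other 7 summed to 387 ± 6.81 CPM in ON and 350 ± 9.24 CPM in OFF.

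**Figure D1:**
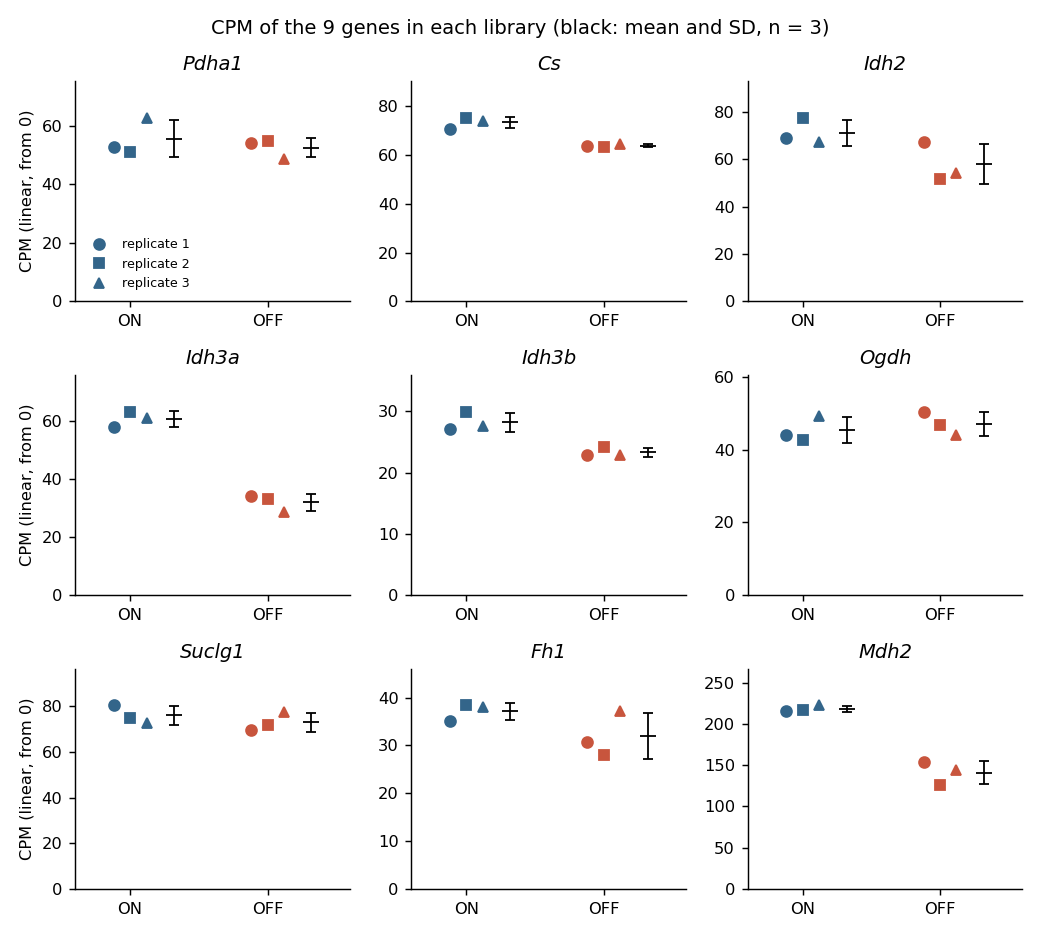
CPM of the 9 genes in each of the 6 libraries on linear axes from 0; symbols mark the replicate number, and the black marks give the mean and SD of each group (n = 3). Idh3a and Mdh2 are clearly parted between ON and OFF, whereas Ogdh, Suclg1 and Pdha1 overlap.

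Idh3a showed the largest difference of the 9. It encodes the catalytic alpha subunit of the NAD-dependent isocitrate dehydrogenase, which makes 2-oxoglutarate in the cycle (ENSMUSG00000032279.11; GRCm38, chromosome 9, 54586334 to 54604661, plus strand). Its level was 57.7, 63.1 and 60.9 CPM in the ON libraries and 34.1, 33.2 and 28.6 CPM in the OFF libraries. The highest OFF library was far below the lowest ON library. The level fell 1.89-fold (log2 fold change -0.92 with SE 0.11; edgeR adjusted p = 3.02e-05), and the fold change stayed between -0.97 and -0.84 under 13 alternative settings, all of which kept the call.

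Mdh2 was the other gene that fell. It encodes the mitochondrial malate dehydrogenase, which regenerates oxaloacetate at the end of the cycle (ENSMUSG00000019179.10; chromosome 5, 135778480 to 135790398, plus strand). It measured 216, 217 and 223 CPM in the ON mice, against 153, 125 and 144 CPM in the OFF mice, again with a wide gap between the groups. The fall was 1.55-fold (log2 fold change -0.63 with SE 0.11; edgeR adjusted p = 0.000402), with values from -0.70 to -0.55 and the call kept under all 13 settings. ON libraries differed little from each other (SD 3.58 CPM) and OFF libraries more (SD 14.2 CPM).

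Promoters are shown for Mdh2, which fell and has a window in the RefSeq table (GRCm38.p6; 250 bases before to 50 after the RefSeq gene start), and for Idh3b, a subunit of the same enzyme as Idh3a that did not pass. Of the 9 genes, 8 matched the table. Both strands were searched for 10 motifs chosen after the values were seen, and matches are in capitals. The last of them is the longest palindrome that occurs 3 times in the Mdh2 window, so its presence there is by choice.
Mdh2, chr5:135778399-135778698, plus strand: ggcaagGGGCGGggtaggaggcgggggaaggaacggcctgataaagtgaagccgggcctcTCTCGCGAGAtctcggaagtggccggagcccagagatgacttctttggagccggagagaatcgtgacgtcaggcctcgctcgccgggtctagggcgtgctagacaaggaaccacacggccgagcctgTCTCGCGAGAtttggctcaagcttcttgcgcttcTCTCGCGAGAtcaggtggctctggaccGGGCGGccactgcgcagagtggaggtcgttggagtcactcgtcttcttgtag
Idh3b, chr2:130284402-130284701, minus strand: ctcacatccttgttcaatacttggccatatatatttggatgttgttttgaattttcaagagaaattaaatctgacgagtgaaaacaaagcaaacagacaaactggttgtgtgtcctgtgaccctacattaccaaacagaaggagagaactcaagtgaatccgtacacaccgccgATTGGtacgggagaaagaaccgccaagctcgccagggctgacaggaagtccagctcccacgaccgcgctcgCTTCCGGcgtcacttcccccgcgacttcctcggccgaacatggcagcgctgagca
The Mdh2 window held TCTCGCGAGA, a palindrome equal to its own reverse complement, 3 times, starting 190, 63 and 29 bases before the RefSeq gene start. The GENCODE start of Mdh2, 135778480, lies further upstream within the window. The copies starting at 63 and 29 bases are thus inside the GENCODE gene. This motif occurred in 134 of 27025 windows (0.496%, the first listed window of each gene), and 2 windows held it 3 times or more. None of the other 7 windows held it. The GC box GGGCGG occurred 2 times in the Mdh2 window and at least once in 5 of the 8 windows (35.9% of all windows), and CCAAT in 5 of the 8 (37.9%). CCGGAAG, a core of ETS factor motifs, occurred in the Idh3b window alone, starting 5 bases before the RefSeq gene start (9.12% of all windows). It reads CTTCCGG on the printed strand and lies inside the GENCODE gene, which starts at 130284547 on the minus strand. No match was found in the 8 windows for the E-box CACGTG (7.24% of all windows), the NRF1 motif, GCGCA and GCGC with 1 base between (4.78%), the oestrogen-related receptor motif TCAAGGTCA (0.407%), the ATF4 and CEBP composite TGATGCAA (0.929%), the STAT motif TTCNNNGAA (8.47%) or TATAAA (14.2%). These 8 are the first listed window of each gene. Ogdh has further windows at other starts, which were not counted. Of these, the windows starting at 6291920, 6292308 and 6292329 on chromosome 11 each held CACGTG. Those starting at 6292308 and 6292329 overlap and hold the same copy. The windows of Pdha1 and Suclg1 held none of the 10 motifs.

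Pdha1, the entry point, encodes the alpha subunit of the E1 component of PDH, which decarboxylates pyruvate (ENSMUSG00000031299.10; chromosome X, 160122209 to 160138413, minus strand). It measured 52.8, 51.0 and 62.8 CPM in the ON mice, against 54.0, 54.9 and 48.7 CPM in the OFF mice. The groups overlapped, and the difference did not pass (log2 fold change -0.08, 95% interval -0.33 to 0.17, adjusted p = 0.637 by edgeR). Exons of Pdha1 share 603 bases with Map3k15 on the opposite strand, from 153 bases before the 3' end of Pdha1, and Map3k15 stood at 9.30 CPM in ON and 9.34 CPM in OFF.

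Of the other subunits of PDH, Dlat and Dld passed the test and Pdhb and Pdhx did not. Pdhb, the beta subunit of E1, had 67.4 ± 7.05 CPM in ON and 62.6 ± 3.64 CPM in OFF (SD; n = 3 mice each; log2 fold change -0.11, adjusted p = 0.506 by edgeR). Dlat, the E2 component that transfers the acetyl group, measured 25.7, 23.2 and 20.8 CPM in the ON mice, against 17.9, 14.3 and 14.9 CPM in the OFF mice. All OFF libraries were below all ON libraries, and Dlat fell 1.49-fold (log2 fold change -0.57 with SE 0.14; edgeR adjusted p = 0.00604). Dld, the E3 component shared with the 2-oxoglutarate dehydrogenase complex, measured 45.8, 38.6 and 47.0 CPM in the ON mice, against 35.1, 30.5 and 29.3 CPM in the OFF mice. It fell 1.38-fold (log2 fold change -0.47, adjusted p = 0.00848 by edgeR), a call lost without ON replicate 3 (adjusted p = 0.0544). The log2 ratio of Pdha1 to Dlat was 1.04, 1.13 and 1.59 in ON and 1.59, 1.95 and 1.71 in OFF, that is 0.50 higher, and that of Pdha1 to Pdhb overlapped (exact permutation p = 0.1 and 0.9). Pdhx, which anchors E3 to the complex, did not pass (log2 fold change -0.07). Of the regulators of PDH, Pdpr, the regulatory subunit of the phosphatase that activates PDH, rose from 10.4 ± 0.55 CPM to 16.2 ± 0.77 CPM (SD; n = 3 mice each; log2 fold change 0.65, adjusted p = 0.00276 by edgeR). Dld was listed with the subunits of the cycle. Without it, 1 of 8 tested genes in the list of other PDH genes was higher, Pdpr, and 1 lower, Dlat (17.3% and 17.5% of tested rows). The other 2 of its 10 genes, the kinases Pdk2 and Pdk4, did not reach the filter. Pdk4 had no count in any library, which allows at most 3 counts in each, and Pdk2 was at or below 0.33 CPM.

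Cs encodes citrate synthase, the first enzyme of the cycle (ENSMUSG00000005683.8; chromosome 10, 128337734 to 128362479, plus strand). Its levels were 70.8, 75.3 and 74.1 CPM in the ON mice, against 63.9, 63.4 and 64.4 CPM in the OFF mice. The OFF libraries lay within 1 CPM of each other and all below ON, but the difference was small and did not pass (log2 fold change -0.20, 95% interval -0.42 to 0.02, adjusted p = 0.143 by edgeR).

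At the isocitrate step, Idh3a was the only subunit of the NAD-dependent enzyme that passed. Idh3b, its beta subunit (ENSMUSG00000027406.12; chromosome 2, 130279309 to 130284547, minus strand), measured 27.1, 30.0 and 27.5 CPM in the ON mice, against 22.9, 24.2 and 22.9 CPM in the OFF mice. All OFF libraries were below all ON libraries, but the call was not reached (log2 fold change -0.27, 95% interval -0.53 to -0.02, unadjusted p = 0.0349 and adjusted p = 0.0867 by edgeR). The last 5 exonic bases of Idh3b overlap the 3' end of Nop56 on the opposite strand, and Nop56, a nucleolar protein gene, changed from a mean of 285 CPM to 111 CPM (log2 fold change -1.36). Idh3g, the gamma subunit, measured 38.1, 41.1 and 37.8 CPM in the ON mice, against 39.4, 38.3 and 48.8 CPM in the OFF mice. These groups overlapped (log2 fold change 0.11, adjusted p = 0.511 by edgeR).

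Within each library the count ratio of Idh3a to Idh3b, on the log2 scale, was 1.09, 1.07 and 1.15 in ON and 0.58, 0.46 and 0.32 in OFF. The means differed by -0.65. The ratio of Idh3g to Idh3a was -0.60, -0.62 and -0.69 in ON and 0.21, 0.21 and 0.77 in OFF, a difference of 1.03. Neither ratio overlapped between the groups, and each had an exact permutation p = 0.1, two-sided, the smallest that 3 against 3 mice can give (adjusted p = 0.14 over the 7 subunit ratios examined). A ratio within a library does not depend on how libraries are scaled.

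Idh2 makes 2-oxoglutarate with NADP in the mitochondrion (ENSMUSG00000030541.16; chromosome 7, 80094846 to 80115392, minus strand). It measured 68.7, 77.4 and 67.4 CPM in the ON mice, against 67.4, 51.7 and 54.3 CPM in the OFF mice. OFF replicate 1 reached the level of ON, while OFF replicates 2 and 3 were lower than every ON library. The difference did not pass (log2 fold change -0.30 with SE 0.12, 95% interval -0.56 to -0.04, adjusted p = 0.0709 by edgeR), and it passed without OFF replicate 1 (log2 fold change -0.43, adjusted p = 0.00619).

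Ogdh encodes the E1 component of the 2-oxoglutarate dehydrogenase complex, which makes succinyl-CoA (ENSMUSG00000020456.17; chromosome 11, 6291633 to 6356642, plus strand). It measured 44.2, 42.7 and 49.4 CPM in the ON mice, against 50.5, 46.9 and 44.0 CPM in the OFF mice. The groups overlapped, and Ogdh was the only one of the 9 with a positive fold change (0.05, 95% interval -0.19 to 0.29, adjusted p = 0.751 by edgeR). Dlst, its E2 partner, likewise had a log2 fold change near 0 (-0.01, adjusted p = 0.974), and the ratio of Ogdh to Dlst overlapped between the groups (exact permutation p = 0.6, adjusted p = 0.70).

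Suclg1 encodes the alpha subunit shared by both succinyl-CoA ligases (ENSMUSG00000052738.14; chromosome 6, 73248382 to 73276911, plus strand). Its level was 80.4, 75.1 and 72.6 CPM in ON and 69.6, 71.6 and 77.6 CPM in OFF, with overlap and no call (log2 fold change -0.06, 95% interval -0.28 to 0.17, adjusted p = 0.702 by edgeR). Its 2 alternative beta subunits set the nucleotide the enzyme makes. Suclg2, of the GTP-forming enzyme, measured 40.2, 43.6 and 42.7 CPM in the ON mice, against 31.3, 27.2 and 24.0 CPM in the OFF mice. The groups were apart, and Suclg2 fell 1.53-fold (log2 fold change -0.62 with SE 0.12; edgeR adjusted p = 0.00143). Sucla2, of the ATP-forming enzyme, did not pass (21.9 ± 2.21 CPM in ON and 18.5 ± 1.89 CPM in OFF, SD; n = 3 mice each; log2 fold change -0.25, adjusted p = 0.18 by edgeR). The log2 ratio of Suclg1 to Suclg2 was 0.85 ± 0.13 in ON and 1.41 ± 0.27 in OFF (SD; n = 3 mice each; exact permutation p = 0.1, adjusted p = 0.14). The same ratio to Sucla2 differed by 0.19, also without overlap (exact permutation p = 0.1, adjusted p = 0.14).

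Succinate dehydrogenase, the enzyme between the ligases and fumarase, had no subunit that passed: Sdha, Sdhb, Sdhc and Sdhd had log2 fold changes between -0.29 and 0.05. Of the 10 tested subunits of the cycle outside the 9, 2 were lower, Dld and Suclg2, and none was higher, with a median of -0.01. Of all tested rows, 17.5% were lower and 17.3% higher.

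Fh1 encodes fumarase, which makes malate (ENSMUSG00000026526.14; chromosome 1, 175600374 to 175625635, minus strand). It measured 35.1, 38.4 and 38.0 CPM in the ON mice, against 30.8, 28.0 and 37.3 CPM in the OFF mice. OFF replicate 3 lay among the ON libraries, and the other two OFF libraries lay below them. The difference did not pass (log2 fold change -0.21, 95% interval -0.49 to 0.06, adjusted p = 0.211 by edgeR), and it passed without OFF replicate 3 (log2 fold change -0.33, adjusted p = 0.0224).

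**Figure D2:**
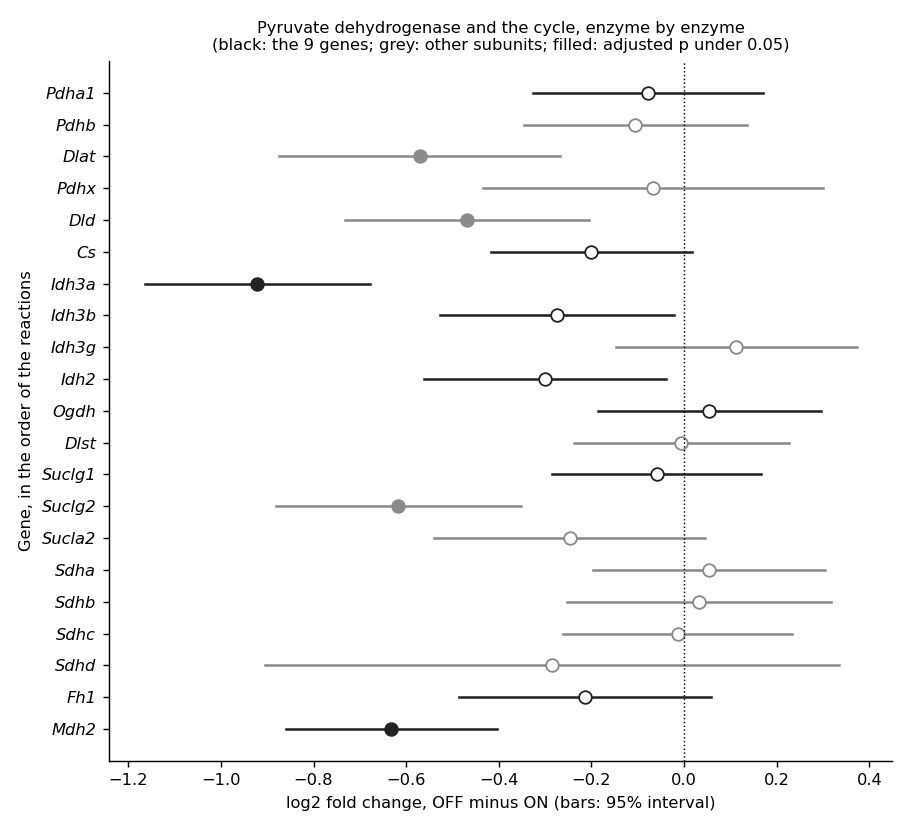
Log2 fold change (OFF minus ON) with its 95% interval for subunits of PDH and of the cycle, in the order of the reactions from top to bottom; black marks the 9 genes, grey other subunits, and filled points passed an adjusted p of 0.05. Filled points lie at Dlat, Dld, Idh3a, Suclg2 and Mdh2, and of the other intervals only those of Idh2 and Idh3b do not cross 0.

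The cytosolic counterparts of Mdh2 and Idh2 rose. Mdh1, the cytosolic malate dehydrogenase, rose from 38.4, 37.4 and 32.3 CPM in ON to 55.0, 51.5 and 61.9 CPM in OFF, a 1.56-fold rise (log2 fold change 0.64 with SE 0.12; edgeR adjusted p = 0.000799). Idh1, the cytosolic NADP-dependent isocitrate dehydrogenase, rose from 55.0, 48.4 and 42.8 CPM to 89.5, 90.9 and 110 CPM, a 1.99-fold rise (log2 fold change 0.99 with SE 0.13; edgeR adjusted p = 3.72e-05). In both genes every OFF library was above every ON library. The log2 ratio of Mdh2 to Mdh1 was 2.49, 2.53 and 2.79 in ON and 1.48, 1.29 and 1.22 in OFF, a difference of -1.28. The log2 ratio of Idh2 to Idh1 was 0.32, 0.68 and 0.65 in ON and -0.41, -0.81 and -1.02 in OFF, a difference of -1.30. Both had an exact permutation p = 0.1, the smallest possible (adjusted p = 0.2 over 4 such ratios, which were chosen after the values were seen). The ratio of Got2 to Got1 overlapped between the groups (exact permutation p = 0.5, adjusted p = 0.5).

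**Figure D3:**
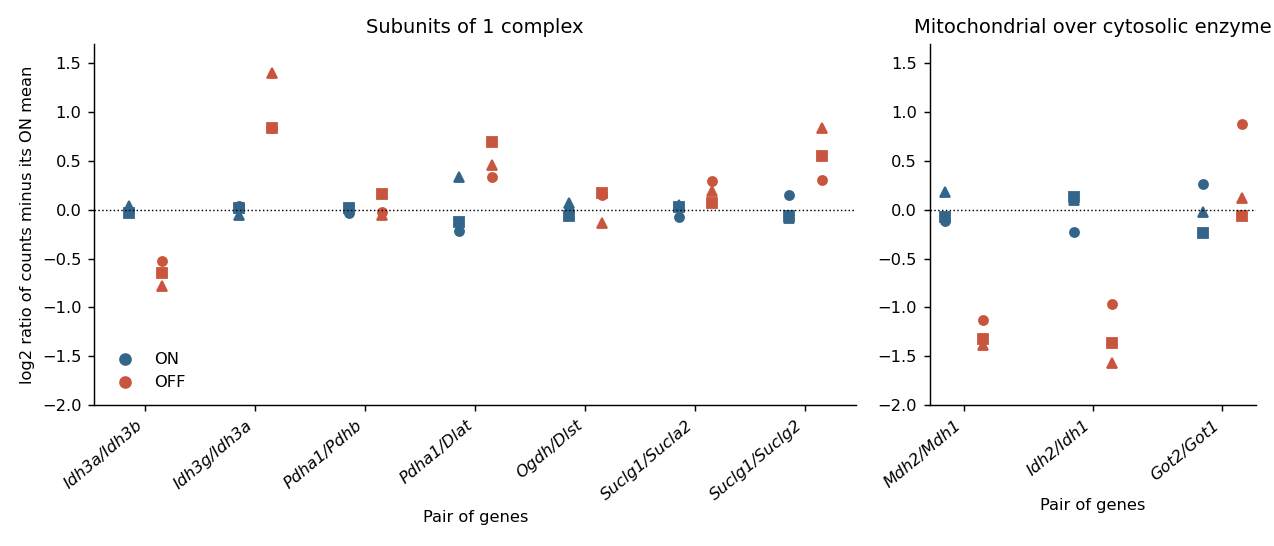
Log2 ratio of the counts of 2 genes in each library, less the mean of the ON libraries (y axis), for subunits of 1 complex (left) and for mitochondrial over cytosolic enzymes (right); circles, squares and triangles are replicates 1, 2 and 3. Idh3a to Idh3b, Mdh2 to Mdh1 and Idh2 to Idh1 lie lower in every OFF library, and Pdha1 to Pdhb and Ogdh to Dlst overlap.

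Cytosolic isoenzymes and shuttle carriers as a list had 4 of 13 tested genes higher and 2 lower, with a median of 0.01. Over all tested rows the shares were 17.3% and 17.5%. Of the 14 listed, Me3 had no count. Besides Mdh1 and Idh1, both mitochondrial carriers called in this list rose. The carriers Slc25a1, Slc25a10 and Slc25a13 did not pass (log2 fold changes -0.06, -0.21 and 0.09). Slc25a11, the 2-oxoglutarate and malate carrier, rose from 37.5 ± 3.97 CPM to 58.4 ± 7.19 CPM, and Slc25a12, an aspartate and glutamate carrier, rose from 55.8 ± 2.87 CPM to 80.8 ± 8.18 CPM (SD; n = 3 mice each). Their log2 fold changes were 0.64 and 0.53 (adjusted p = 0.00118 and 0.00199 by edgeR). Slc25a11 shares exonic bases far from its 3' end with Rnf167 on the opposite strand, which was at 15.5 CPM in ON and 30.1 CPM in OFF. The 2 that fell were the aspartate aminotransferases of the same shuttle, Got1 in the cytosol (log2 fold change -0.80, adjusted p = 0.00347) and Got2 in the mitochondrion (-0.49, adjusted p = 0.00747, or 0.0509 with limma on the deposited log2 table).

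A list of 7 genes, most of them for entry of glutamine carbon or removal of 2-hydroxyglutarate, had 4 lower and 1 higher (median -0.91). The shares over all tested rows were 17.5% and 17.3%. Gpt2, a mitochondrial alanine aminotransferase, fell from 4.98 ± 0.69 CPM to 1.26 ± 0.55 CPM, and Pck2, the mitochondrial phosphoenolpyruvate carboxykinase, which takes oxaloacetate out of the cycle, from 14.0 ± 1.55 CPM to 5.58 ± 0.89 CPM (SD; n = 3 mice each; log2 fold changes -1.97 and -1.33, adjusted p = 0.000328 and 6.82e-05 by edgeR). D2hgdh, a 2-hydroxyglutarate dehydrogenase, rose from a mean of 3.35 CPM to 5.72 CPM (log2 fold change 0.77, adjusted p = 0.0223 by edgeR). The call of D2hgdh did not hold without replicate 2 or 3 of ON or replicate 2 of OFF (adjusted p from 0.0749 to 0.0958).

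Of 4 tested genes of pyruvate entry and lactate formation, only Ldha passed (34.8% of all tested rows did). This lactate dehydrogenase subunit fell from 272 ± 8.98 CPM to 168 ± 24.9 CPM (SD; n = 3 mice each; log2 fold change -0.70, adjusted p = 0.000347 by edgeR). Lipoate, the cofactor bound to Dlat and Dlst, is made by part of a list of 10 genes that also holds assembly factors of succinate dehydrogenase. Of these, 3 were lower (17.5% of all tested rows) and 1 was higher (17.3%), with a median of -0.34. Lipt1 (log2 fold change -1.42), Mecr (-0.53) and Sdhaf1 (-0.54) were the lower ones and Oxsm (0.72) the higher. These calls rest on low levels, between 1.37 and 10.8 CPM in the group means, and each was lost without 1 or more single libraries. Lipt1 did not pass without replicate 1 or 2 of ON (adjusted p from 0.0599 to 0.062), Mecr without any 1 of the 6 (0.0612 to 0.153), Sdhaf1 without any single ON library or replicate 2 of OFF (0.0823 to 0.174), and Oxsm without replicate 1 or 3 of ON or replicate 2 of OFF (0.066 to 0.115).

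Of 9 tested mitochondrial regulators and outer membrane genes, 5 were lower and 0 higher, against 17.5% and 17.3% of all tested rows. The list median was -0.29. The lower ones were Tomm20, Vdac1, Vdac2 and Vdac3 of the outer membrane and, of the regulators, Pprc1 alone. The regulators Tfam, Nrf1, Gabpa and Esrra did not pass (log2 fold changes -0.26, -0.09, -0.29 and 0.23). Tomm20, a receptor for protein import, fell 1.94-fold, from 177 ± 6.97 CPM to 91.4 ± 6.52 CPM (SD; n = 3 mice each; log2 fold change -0.95, adjusted p = 1.23e-05 by edgeR), and Pprc1, a coactivator of mitochondrial genes, fell from a mean of 10.3 CPM to 3.99 CPM (-1.37). The porins Vdac1, Vdac2 and Vdac3 had smaller changes, between -0.33 and -0.29, with adjusted p between 0.0312 and 0.0428. The calls of Vdac1 and Vdac3 did not hold without any single ON library or without replicate 2 of OFF, and that of Vdac2 also without OFF replicate 1 (adjusted p from 0.0556 to 0.152). Transcripts of the mitochondrial genome took between 6.53% and 7.70% of the counts of each library.

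**Figure D4:**
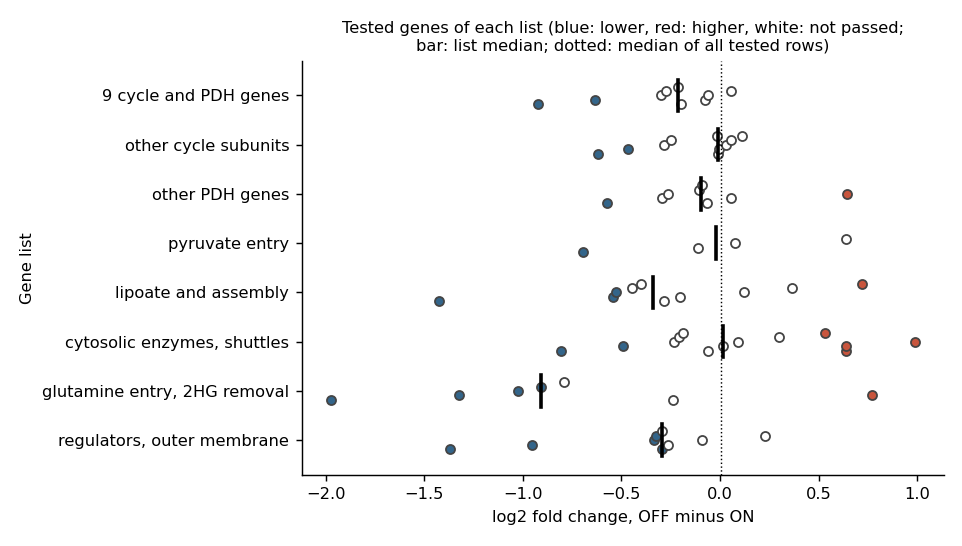
Log2 fold change (OFF minus ON) of each tested gene of the 9 and of 7 related lists; blue points were lower, red higher and white did not pass an adjusted p of 0.05, black bars are list medians and the dotted line is the median of all tested rows. The 9 genes spread from -0.92 to 0.05, and the glutamine and 2-hydroxyglutarate (2HG) list has the lowest median, -0.91.

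The mean profile of the 9 genes over the 6 libraries, each gene centred on its own mean log2 CPM, was compared with 7022 other named rows of at least 10 CPM. The rows closest to it were Dusp11, Nelfa, Csnk2a1, Fam104a and Ash2l, with a root mean square difference between 0.0173 and 0.0242 on the log2 scale over 6 libraries. Their log2 fold changes lay between -0.30 and -0.27.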

How the data were processed

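Sorted leukaemic cells of 6 mice (3 ON, 3 OFF, grouped by sample title) were profiled as Lexogen QuantSeq 3' libraries (per the labels), so a count reflects reads near a gene's 3' end. HISAT2 2.0.4, cutadapt 1.9.1, featureCounts (Subread 1.6.3), limma 3.42.2 and build mm10 are listed per the submitters' processing notes. Annotation, strand setting and multi-mapping were not given in the sources used here, so reads of overlapping genes on opposite strands may be mixed. The authors' deposited table held raw counts in 54838 rows; 1105 rows without a name (between 0.145% and 0.172% of counts) were left out, and ribosomal RNA rows took between 10.1% and 18.0%. A second deposited table, voom and limma normalised log2 values per its file name, was used only as an alternative.

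Counts were analysed with edgeR 4.0.16 in R 4.3.3: filterByExpr (minimum count 10, total 15), TMM, robust quasi-likelihood test without covariates, and Benjamini-Hochberg adjustment over all 13652 rows at 0.05. SE is the size of the fold change divided by the square root of F. The method was tested on simulated data. Alternatives were DESeq2 1.42.0, limma 3.58.1 on the deposited log2 table, RLE scaling, other filters, a replicate block, exclusion of ribosomal RNA rows, and each library left out. Genes were named by rule: the 9 genes, their partner subunits and, of each related list, called genes up to the 4 largest in each direction. Other genes, such as Vdac3, uncalled regulators and carriers, untested kinases, overlapping neighbours and markers, were named after their values were seen. Some genes that enter the counts and medians of the lists are not reported here by name. Members and lists were chosen with earlier results of these data known. Gene positions are from GENCODE M21 (GRCm38), and motif positions are relative to RefSeq gene starts. Apart from Pdha1 and Map3k15, the last 300 bases of the 9 genes' transcripts matched no other gene at 95% identity over 50 bases. Libraries are 1 per mouse, and the 95% intervals of fold changes come from the edgeR fit and include the spread between mice. The limit that a count of 0 allows covers counting error only.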

Additional observations from a re-analysis of the deposited data

How the results depend on the processing

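Under 13 alternatives, Idh3a and Mdh2 kept their call and direction, and none of the 9 genes was called higher. Between 2 and 3 of the 9 genes were lower when 1 library at a time was left out; the added gene was Idh2 without OFF replicate 1 and Fh1 without OFF replicate 3. Pdha1 was the only one of the 9 whose sign changed, to 0.01 in 1 setting, with no call in any. Over all rows, leaving out each library gave between 1615 and 2704 higher and between 1678 and 2740 lower calls, and over the 7 related lists between 5 and 8 higher and between 12 and 19 lower. The subunit ratios that did not overlap numbered 5 of 7 with all libraries, and 5 to 6 with 1 left out. Single genes did not overlap in 48.3% of all tested rows. The ratios share genes, and apart from Suclg1 to Sucla2 each ratio that did not overlap with all libraries held a called gene. They thus partly restate those calls. Same-numbered ON and OFF libraries did not deviate together (correlations of 0.03, -0.08 and -0.05), so the numbers were not taken to pair mice; with a replicate block there were 2173 higher and 2230 lower calls over all rows, 2 of the 9 genes were lower, and 7 genes of the related lists were higher and 13 lower. Mecr, Oxsm, Sdhaf1, D2hgdh, Vdac1, Vdac2, Vdac3 and Got2 lost their calls in 1 to 5 of the settings that kept all libraries. The median of all rows was at most 0.03 on the log2 scale in any setting. Depth limits low genes such as Lipt1, at 1.37 CPM in OFF.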
